A study of Mus musculus with 24 samples.

Results

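The genes described here are 40 chaperones and quality-control genes of the liver, 27 of the endoplasmic reticulum (ER) and 13 heat shock genes of the cytosol, nucleus and mitochondria, out of 37074 gene names on the array and 21372 genes tested. They were taken by gene name from a list drawn up with earlier results of these data known. Each gene is represented by 1 probe, that with the highest mean signal over the 24 arrays, and all 40 of these probes were well above background on every array. Liver RNA came from male mice of 12 weeks, 1 array a mouse and 6 mice in each of 4 groups. LWT_Fed and LWT_Fasted are p110aLWT mice, which carry floxed Pik3ca alleles and no Cre. LKO_Fed and LKO_Fasted are p110aLKO littermates that carry the same floxed alleles together with a Cre driven by the albumin promoter, which acts in hepatocytes only, so that other liver cells keep p110α. Pik3ca encodes p110α, a catalytic subunit of the phosphoinositide 3-kinase that relays insulin signals. Fasted mice had no food for 24 h, and all 4 groups were killed at zeitgeber time (ZT) 16, in the dark phase. The only Pik3ca probe gave a log2 signal of 11.91 ± 0.21 (SD, n = 6) in LWT_Fed and 12.54 ± 0.26 in LKO_Fed, higher in LKO_Fed by 0.58 in the fit (adjusted p = 0.00147), and 12.28 ± 0.14 in LWT_Fasted against 12.26 ± 0.19 in LKO_Fasted (difference -0.02, adjusted p = 0.93, interaction -0.60, adjusted p = 0.0299). Whether this probe lies in the deleted exons was not settled here, so it does not check the genotype, and LWT and LKO are used below as the labels give them.

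The ER folds, glycosylates and inspects the proteins that hepatocytes secrete, albumin and apolipoproteins among them. When unfolded proteins build up there, the sensors IRE1 (Ern1), ATF6 and PERK start the unfolded protein response, in which the factors XBP1 and ATF6 switch on chaperones, disulfide isomerases and the machinery that returns misfolded proteins to the cytosol for degradation (ER-associated degradation, ERAD). The heat shock response is its counterpart in the cytosol, where the factor HSF1 switches on HSP70, HSP90 and their co-chaperones. Liver meets feeding with more secretory and biosynthetic work, which makes the 2 systems a natural pair to set side by side over feeding and fasting.

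Fasting lowered the ER genes in both genotypes. In LWT mice 24 of 27 ER members fell and 1 rose at an adjusted p of at most 0.05 (limma, Benjamini-Hochberg over all probes), against 21.7% of all tested genes that fell and 19.9% that rose. In LKO mice 25 of 27 fell and 1 rose, against 21.9% and 19.7% of all genes. The median log2 fold change of the 27 was -0.84 in LWT and -0.89 in LKO, whereas that of all genes was -0.01 and -0.02. Fed and fasted arrays did not overlap for 18 of 27 ER and 3 of 13 heat shock members in LWT, against 21.6% of all genes. In LKO they did not overlap for 23 ER and 0 heat shock members, against 22.2% of all genes. Of the 13 heat shock members, 5 fell and 0 rose in LWT, and 0 fell and 3 rose in LKO, with medians of -0.20 and 0.06. Without LKO_Fasted replicates 1 and 2, which stood apart from their group on a principal component (below), 3 heat shock members still passed in LKO but only Hspd1 was shared, since Hspa8 and Hspe1 no longer passed while Hsph1 and Dnaja1 now fell, so that 1 rose and 2 fell. In bulk liver, fewer cells that make a transcript and less of it per cell cannot be told apart.

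**Figure D1:**
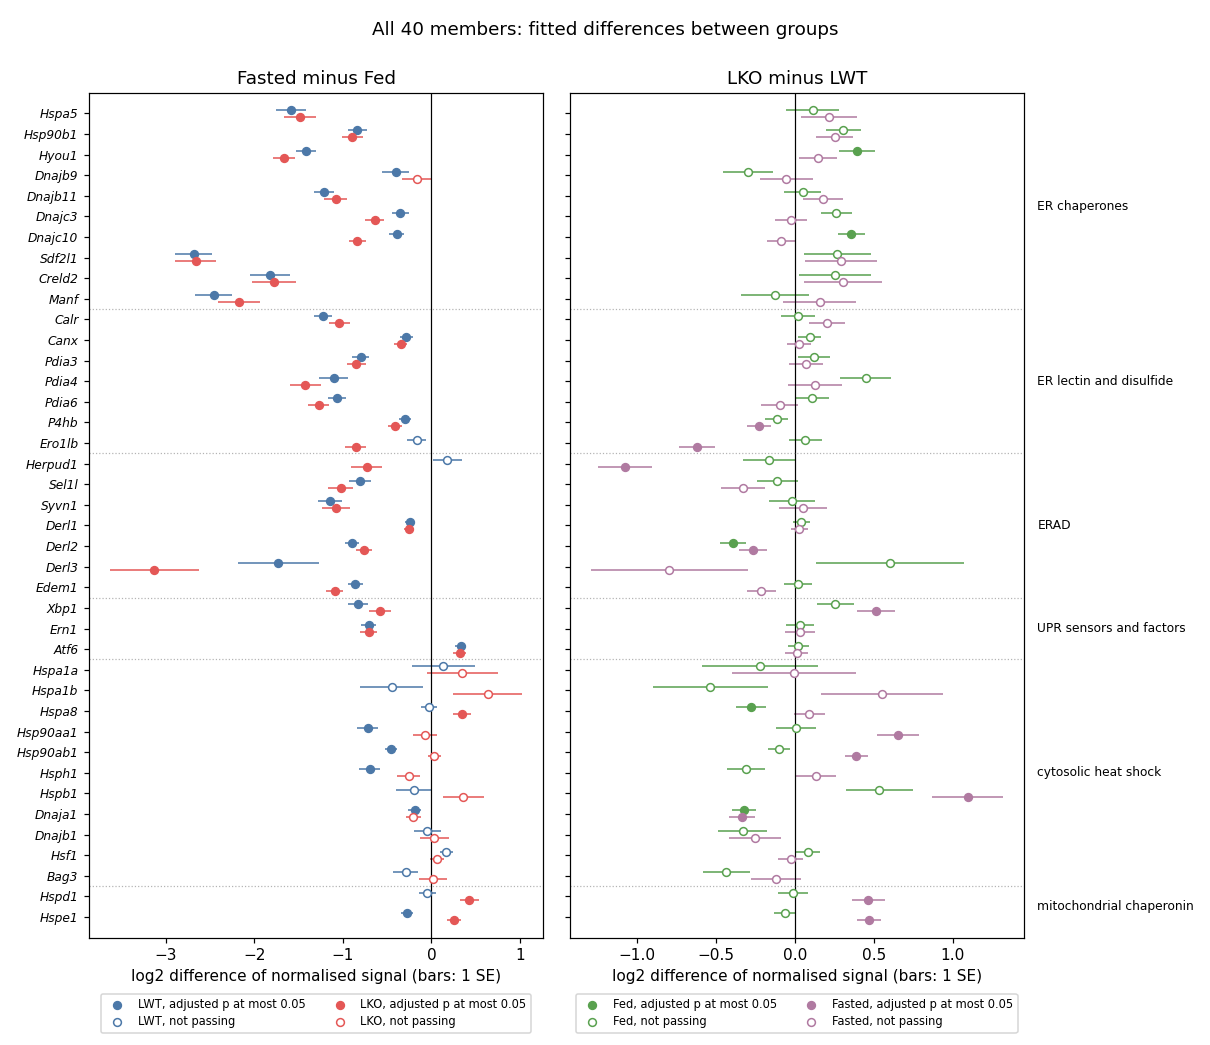
Fitted log2 differences of normalised signal for all 40 members, ordered by role, fasted minus fed in each genotype on the left and LKO minus LWT in each feeding state on the right. Points are limma estimates from 24 arrays, bars are 1 SE, and filled points have an adjusted p of at most 0.05. Nearly all ER members lie to the left of 0 in both genotypes on the left panel, with Sdf2l1 and Manf farthest in LWT and Derl3 and Sdf2l1 in LKO, while most heat shock members lie near 0.

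Hspa5 (probe at chr2:34631913-34631972, mm9, for NM_022310) encodes BiP, the HSP70 of the ER lumen that also holds the stress sensors inactive. Its log2 signal (lowest, median and highest array) was 15.87, 16.43 and 16.66 in LWT_Fed, 14.46, 14.78 and 15.20 in LWT_Fasted, 16.14, 16.57 and 16.88 in LKO_Fed, and 14.50, 14.98 and 15.54 in LKO_Fasted. Every fasted array lay below every fed array of its genotype. The log2 fold change with fasting was -1.59 ± 0.17 (SE, adjusted p = 1.14e-07) in LWT and -1.48 ± 0.18 (adjusted p = 9.78e-07) in LKO, falls of 3.0-fold and 2.80-fold. Both other Hspa5 probes gave similar values, from -1.54 to -1.66. The genotype difference of Hspa5 did not pass in either feeding state (0.11 ± 0.17 in fed and 0.22 ± 0.18 in fasted mice, log2 LKO minus LWT, adjusted p = 0.71 and 0.44).

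The promoter of Hspa5 is shown because it holds the classic ER stress response element (ERSE), a CCAAT box set 9 bases from a CCACG, to which NF-Y and ATF6 or XBP1 are known to bind. The 120 bases before its annotated start (RefSeq, GRCm38.p6, chr2:34771970-34772089, plus strand, 5′ to 3′) read as follows, with the ERSE letters in capitals.
Hspa5 promoter: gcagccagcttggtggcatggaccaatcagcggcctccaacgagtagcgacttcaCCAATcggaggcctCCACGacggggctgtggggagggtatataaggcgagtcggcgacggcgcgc

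The other ER chaperones fell with it. All 10 fell in LWT and 9 of 10 in LKO, with Dnajb9 (ERdj4, a co-chaperone of BiP) the exception at -0.40 ± 0.15 (adjusted p = 0.0409, lost without LWT_Fasted replicate 1, 3 or 6 or LWT_Fed replicate 1, 4 or 5 at 0.0529 to 0.158) in LWT and -0.16 ± 0.17 (adjusted p = 0.475) in LKO. The largest falls were in Sdf2l1, an ER-resident partner of the BiP chaperone cycle, and in Manf, a small protein of the ER lumen that binds BiP. Sdf2l1 read 11.90, 12.37 and 12.71 in LWT_Fed against 9.10, 9.60 and 10.20 in LWT_Fasted (lowest, median and highest log2 signal), and 12.12, 12.60 and 13.24 in LKO_Fed against 9.30, 9.99 and 10.28 in LKO_Fasted. Its signal fell 6.43-fold in LWT (log2 -2.68 ± 0.21, adjusted p = 1.57e-09) and 6.34-fold in LKO (-2.66 ± 0.23, adjusted p = 5.60e-09), with a gap of over 1 log2 unit between fed and fasted arrays of each genotype. Manf read 12.85, 13.58 and 13.95 in LWT_Fed, 10.62, 11.06 and 11.56 in LWT_Fasted, 13.03, 13.41 and 14.01 in LKO_Fed, and 10.48, 11.26 and 11.98 in LKO_Fasted. It fell 5.50-fold in LWT (-2.46 ± 0.21, adjusted p = 6.66e-09) and 4.51-fold in LKO (-2.17 ± 0.23, adjusted p = 1.34e-07). Fed and fasted arrays did not overlap for either gene in either genotype.

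Creld2, a calcium-binding protein of the ER that is induced by ER stress, read 14.50, 15.20 and 15.52 in LWT_Fed, 12.93, 13.42 and 13.77 in LWT_Fasted, 14.41, 15.55 and 16.20 in LKO_Fed, and 12.76, 13.70 and 14.07 in LKO_Fasted. Its log2 fold change was -1.82 ± 0.23 (adjusted p = 1.15e-06) in LWT and -1.77 ± 0.25 (adjusted p = 5.55e-06) in LKO. Hyou1 (GRP170), the nucleotide exchange factor of BiP, read 8.49, 8.60 and 9.10 in LWT_Fed, 6.75, 7.11 and 7.38 in LWT_Fasted, 8.34, 9.05 and 9.25 in LKO_Fed, and 6.93, 7.29 and 7.46 in LKO_Fasted. It fell by 1.42 ± 0.11 on the log2 scale in LWT (adjusted p = 1.95e-09) and by 1.67 ± 0.12 in LKO (adjusted p = 6.05e-10). For both genes the fasted arrays all lay below the fed arrays of the same genotype. The remaining members of the group were Hsp90b1 (GRP94, the HSP90 of the ER; -0.84 in LWT and -0.89 in LKO), Dnajb11 (ERdj3; -1.21 and -1.08), Dnajc3 (p58IPK; -0.35 and -0.64) and Dnajc10 (ERdj5, a disulfide reductase; -0.39 and -0.84), all of which passed in both genotypes. The fall of Dnajc10 in LWT was not seen at its 3 dimmer probes (-0.13, -0.17 and 0.11, none passing), and the mean of its probes gave -0.14 (adjusted p = 0.0661) in LWT beside -0.37 (adjusted p = 0.000146) in LKO.

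Dnajb11 is the 1 ER chaperone with probes that passed in opposite directions. Of its 3 probes, the one used here (NM_001190804) and another with the same accession fell in both genotypes, the latter by 0.98 and 0.99 on the log2 scale. The dimmer probe for NM_026400 rose, by 1.67 in LWT (adjusted p = 1.18e-09), and in LKO by 0.68 (adjusted p = 0.000466), and its rise was smaller in LKO (interaction -0.99, adjusted p = 0.00301). With the mean of all 3 probes, Dnajb11 no longer passed in LWT (-0.18, adjusted p = 0.146).

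**Figure D2:**
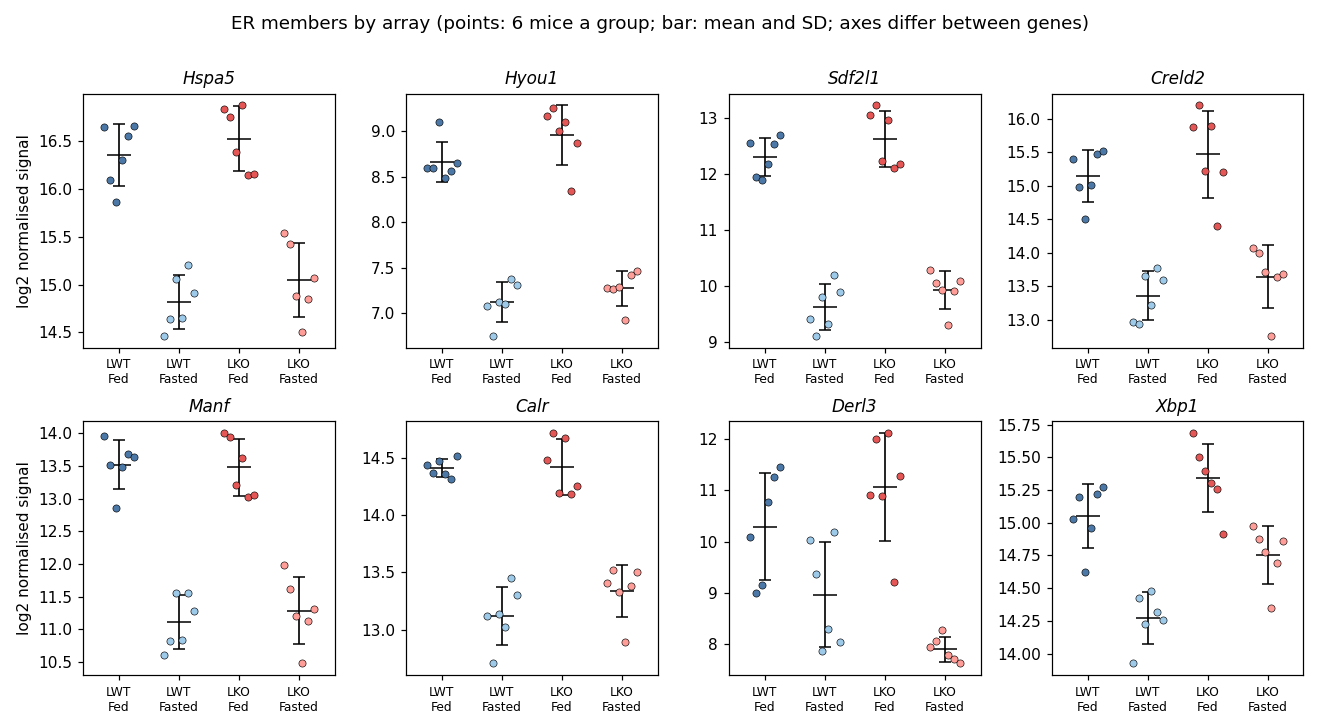
Log2 normalised signal of 8 ER members on each array, by group. Points are single mice (n = 6 a group), and bars are the mean and SD. Fed and fasted arrays of the same genotype do not overlap for Hspa5, Hyou1, Sdf2l1, Creld2, Manf and Calr, while Derl3 has a wide spread in 3 groups and a narrow one in LKO_Fasted.

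Of the 7 lectin chaperones and disulfide enzymes, 6 fell in LWT and 7 in LKO, with median log2 changes of -0.80 and -0.86, beside -1.32 and -1.28 for the 10 ER chaperones above. Calr (calreticulin), a lectin that retains unfinished glycoproteins, read 14.32, 14.40 and 14.52 in LWT_Fed, 12.70, 13.13 and 13.45 in LWT_Fasted, 14.18, 14.37 and 14.73 in LKO_Fed, and 12.89, 13.39 and 13.52 in LKO_Fasted. It fell by 1.22 ± 0.10 on the log2 scale in LWT (adjusted p = 6.68e-09) and by 1.04 ± 0.12 in LKO (adjusted p = 2.39e-07), without overlap of fed and fasted arrays. Its membrane-bound relative Canx (calnexin) fell less, by 0.28 ± 0.070 in LWT (adjusted p = 0.0024) and by 0.35 ± 0.077 in LKO (adjusted p = 0.000958). The isomerases Pdia3 (-0.80 in LWT and -0.85 in LKO), Pdia4 (-1.10 and -1.43) and Pdia6 (-1.07 and -1.27) passed in both genotypes. P4hb, the founding protein disulfide isomerase and a subunit of prolyl 4-hydroxylase, fell by 0.30 and 0.41. Pdia4 read 11.71, 12.05 and 12.56 in LWT_Fed, 9.98, 10.95 and 11.18 in LWT_Fasted, 12.10, 12.44 and 12.94 in LKO_Fed, and 10.56, 11.12 and 11.17 in LKO_Fasted. Pdia6 read 14.98, 15.40 and 15.71 in LWT_Fed, 14.22, 14.30 and 14.71 in LWT_Fasted, 15.29, 15.55 and 15.90 in LKO_Fed, and 13.98, 14.22 and 14.58 in LKO_Fasted. Each fasted array again lay below each fed array of its genotype for both isomerases (adjusted p = 8.90e-06 and 1.02e-06 for Pdia4 and 5.67e-08 and 1.37e-08 for Pdia6, LWT then LKO).

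In the ERAD group 6 of 7 members fell in LWT and 7 of 7 in LKO. Syvn1 (HRD1), the ubiquitin ligase of the pathway, changed by -1.15 and -1.08 (log2, LWT then LKO), its partner Sel1l by -0.81 and -1.02, Edem1, which hands on trimmed glycoproteins, by -0.86 and -1.09, and Derl2, a channel component, by -0.90 and -0.77. Derl1 fell by 0.25 and 0.26, but a second probe for it (AK028705) rose in LKO, by 0.56 (adjusted p = 0.000454), and gave 0.13 in LWT (adjusted p = 0.351), and the mean of both passed in neither genotype (-0.06, adjusted p = 0.487, and 0.15, adjusted p = 0.0765). The mean of the Sel1l probes gave smaller falls, -0.46 and -0.57, with -0.38 and -0.44 at one of the others and -0.19 and -0.24 at the dimmest. Derl3, a derlin known to be induced by ER stress, varied most among mice. It read 9.0, 10.43 and 11.45 in LWT_Fed, 7.86, 8.83 and 10.18 in LWT_Fasted, 9.21, 11.10 and 12.13 in LKO_Fed, and 7.61, 7.86 and 8.28 in LKO_Fasted. LWT arrays overlapped between fed and fasted mice, whereas LKO arrays did not. Its fall was 3.31-fold in LWT (-1.73 ± 0.46, adjusted p = 0.00414) and 8.74-fold in LKO (-3.13 ± 0.51, adjusted p = 3.29e-05), a difference between genotypes of -1.40 ± 0.68 that did not pass (interaction adjusted p = 0.223, and 0.293 without LKO_Fasted replicates 1 and 2).

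Among the sensors and factors, Xbp1 and Ern1 fell and Atf6 rose. Xbp1 (probe at chr11:5425816-5425875, mm9, for NM_013842) read 14.63, 15.11 and 15.27 in LWT_Fed, 13.93, 14.29 and 14.48 in LWT_Fasted, 14.91, 15.35 and 15.69 in LKO_Fed, and 14.35, 14.82 and 14.97 in LKO_Fasted. All fasted LWT arrays lay below the fed ones, and the LKO groups overlapped slightly. It fell by 0.83 ± 0.11 on the log2 scale in LWT (adjusted p = 3.53e-06) and by 0.58 ± 0.12 in LKO (adjusted p = 0.00069). The Xbp1 probes are not known to tell the spliced from the unspliced transcript, so these values are of total Xbp1 RNA. Ern1 fell by 0.71 in each genotype (adjusted p = 1.04e-06 and 3.44e-06). Of its 4 dimmer probes, the brightest gave -0.49 and -0.66 and the others -0.16 to -0.30, of which 1 passed, in LWT, and the mean of all 5 gave -0.40 and -0.39. Atf6 rose by 0.33 ± 0.065 in LWT (adjusted p = 0.000305) and by 0.32 ± 0.072 in LKO (adjusted p = 0.00113), and its second, dimmer probe gave 0.06 and -0.07 and did not pass in either. The mean of both was 0.20 (adjusted p = 0.00947) for LWT and 0.12 (adjusted p = 0.134) for LKO.

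The fall of ER members was alike on each of the 3 slides, which held 2 arrays of every group. The median difference over the 27 members ranged from -0.80 to -0.90 between slides in LWT and from -0.90 to -0.99 in LKO, and all 25 passing members in LWT and all 26 in LKO had the sign of the fit on every slide. Of the heat shock calls, 5 of 5 in LWT and 2 of 3 in LKO kept it, Hspd1 being the exception. Leaving out any 1 array gave 24 to 26 passing ER members in LWT and 26 in LKO, and leaving out LKO_Fasted replicates 1 and 2 together also gave the same 26, whose log2 changes were then 0.882 (Atf6) to 1.29 (Herpud1) times those with all arrays. Set against the LWT_Fed mean of each gene, the 27 members averaged -0.89 ± 0.15 (SD, n = 6, log2) in LWT_Fasted, 0.13 ± 0.24 in LKO_Fed and -0.93 ± 0.14 in LKO_Fasted, and no fasted array reached the level of a fed array. The averages per array were -0.27 to 0.17 over LWT_Fed arrays, -1.06 to -0.63 over LWT_Fasted, -0.16 to 0.41 over LKO_Fed and -1.16 to -0.77 over LKO_Fasted. The same average over the 13 heat shock members overlapped among all 4 groups, from -0.19 to 0.23, -0.40 to 0.02, -0.28 to 0.18 and -0.29 to 0.36 in that order.

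Other genes of the secretory pathway, from lists chosen by function, were read in the same way. Of 24 genes for translocation into the ER and N-glycosylation, 19 fell and 0 rose in LWT, and 20 fell and 0 rose in LKO, with medians of -0.54 and -0.65. Ostc, a subunit of oligosaccharyltransferase, changed by -1.41 and -1.46, and Sec61b, of the translocation channel, by -1.13 and -1.17. Of 18 tested genes of a list of other ER folding factors, 13 fell in LWT and 14 in LKO with none rising, Hspa13 (-0.93 and -1.06) and the glycoprotein folding sensor Uggt1 (-0.74 and -1.02) furthest. Of 20 other ERAD genes, 4 fell and 5 rose in LWT and 5 fell and 6 rose in LKO, near the shares of all genes (21.7% and 19.9% in LWT, 21.9% and 19.7% in LKO). Edem2 fell by 0.56 and 1.07, while the VCP cofactor Nploc4 rose by 0.36 and 0.52. In the PERK branch 5 of 10 genes rose and 1 fell in LWT and 4 rose and 2 fell in LKO, set against those same shares. Without LKO_Fasted replicates 1 and 2 the falling and rising genes in LKO were 21 and 0 of the translocation list, 14 and 0 of the folding list, 4 and 5 of the other ERAD genes, and 2 and 3 of the PERK branch. The pseudokinase Trib3 rose by 1.22 and 1.11, while Eif2ak3, which encodes PERK, fell by 0.44 and 0.42.

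The fall in ER genes was checked beside markers of cell types other than hepatocytes. The 8 hepatocyte markers summed to log2 signals of 20.62 to 20.68 in LWT_Fed, 20.64 to 20.69 in LWT_Fasted, 20.65 to 20.66 in LKO_Fed and 20.56 to 20.61 in LKO_Fasted, so LKO_Fasted was slightly lower than the other groups without overlap. This sum is of linear signals, so its brightest markers weigh most. Quantile normalization holds the brightest ranks alike between arrays, so the sum can say little of hepatocyte content. Of 8 pancreatic acinar markers 4 were tested, and Cpa1, Pnlip, Prss2 and Amy2b were not well above background often enough to be. The summed log2 signal of those 4 was 9.49 to 9.82 in LWT_Fed, 9.09 to 9.43 in LWT_Fasted, 9.67 to 10.26 in LKO_Fed and 9.05 to 9.43 in LKO_Fasted, and Cela2a fell with fasting in both genotypes (-0.79 and -0.99). Plasma and B cell markers (5 of 8 tested) summed to 9.49 to 10.19 in LWT_Fasted and 9.53 to 9.91 in LWT_Fed, and to 9.46 to 10.28 in LKO_Fasted and 9.40 to 9.90 in LKO_Fed, so fed and fasted overlapped. Kupffer and myeloid markers (8 of 8) summed to 15.42 to 15.89 in LWT_Fed, 14.60 to 15.95 in LWT_Fasted, 15.04 to 15.80 in LKO_Fed and 14.75 to 16.71 in LKO_Fasted. In LWT 5 of 6 fasted sums lay below every fed sum, and all 8 of these markers had negative changes (median -0.43), of which 1 passed (Lyz2, -0.82), while in LKO 4 were negative and 4 positive with none passing. All 8 had positive interactions (median 0.45), none of which passed. Endothelial and stellate markers (8 of 8) ranged from 13.14 to 13.75, with overlap of fed and fasted arrays in each genotype, although Acta2 (-1.05 and -0.91) and Lrat (-0.90 and -0.96) fell and Pecam1 rose in LKO (0.37, adjusted p = 0.00867). Immediate early genes, which mark recent stimulation of cells, were higher in fasted mice, with summed log2 signals of 12.33 to 12.49 in LWT_Fed, 13.09 to 13.80 in LWT_Fasted, 12.30 to 13.09 in LKO_Fed and 13.68 to 14.44 in LKO_Fasted. Of 9 tested clock genes, 5 rose and 2 fell with fasting in LWT and 3 rose and 2 fell in LKO. The part of any of these in the fall of ER genes was not tested.

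ERSE matches were common in the promoters of the ER members. RefSeq promoters of 300 bases (250 before and 50 after the start, GRCm38.p6) were at hand for 32 of the 40 members, 23 ER and 9 heat shock. The motif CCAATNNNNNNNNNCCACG on either strand was present in 10 of 23 ER members (43.5%), in 0 of 9 heat shock members and in 37 of 27025 genes with a promoter (0.137%). The matches are listed to show how alike the boxes are, each 5′ to 3′ on the strand that reads CCAAT first, with the fixed letters in capitals.
Hspa5, chr2:34772025-34772043, plus strand: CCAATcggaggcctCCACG
Hsp90b1, chr10:86705638-86705656, minus strand: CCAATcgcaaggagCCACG
Hsp90b1, chr10:86705533-86705551, plus strand: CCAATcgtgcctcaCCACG
Dnajc3, chr14:118937827-118937845, plus strand: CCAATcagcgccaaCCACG
Creld2, chr15:88819520-88819538, minus strand: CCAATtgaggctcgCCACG
Calr, chr8:84847075-84847093, plus strand: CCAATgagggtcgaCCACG
Canx, chr11:50325800-50325818, minus strand: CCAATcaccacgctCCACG
Pdia6, chr12:17266491-17266509, plus strand: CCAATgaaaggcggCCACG
Ero1lb, chr13:12565682-12565700, minus strand: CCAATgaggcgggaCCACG
Syvn1, chr19:6046532-6046550, plus strand: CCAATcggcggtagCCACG
Derl3, chr10:75893242-75893260, minus strand: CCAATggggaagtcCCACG

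The related ERSE-II, ATTGGNCCACG, was found in Dnajb11 and Herpud1 (2 of 23 ER members, 8.70%) and in 12 of 27025 promoters (0.0444%). The XBP1 site TGACGTGG was found in 0 of 23 ER members and in 0.714% of all promoters. A bare CCAAT, which every ERSE contains, was present in 20 of 23 ER members (87.0%), 6 of 9 heat shock members (66.7%) and 41.1% of all promoters. Members with and without an ERSE match both fell with fasting. Of the 10 with a match, 9 fell in LWT and 10 in LKO, with median log2 changes of -1.11 and -1.06. Of the 13 with a promoter and no match, 12 fell in each genotype, with medians of -0.81 and -0.84. A match is a description of letters, and binding was not measured. Only exact matches to the fixed letters were counted, so variant sites would be missed.

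**Figure D3:**
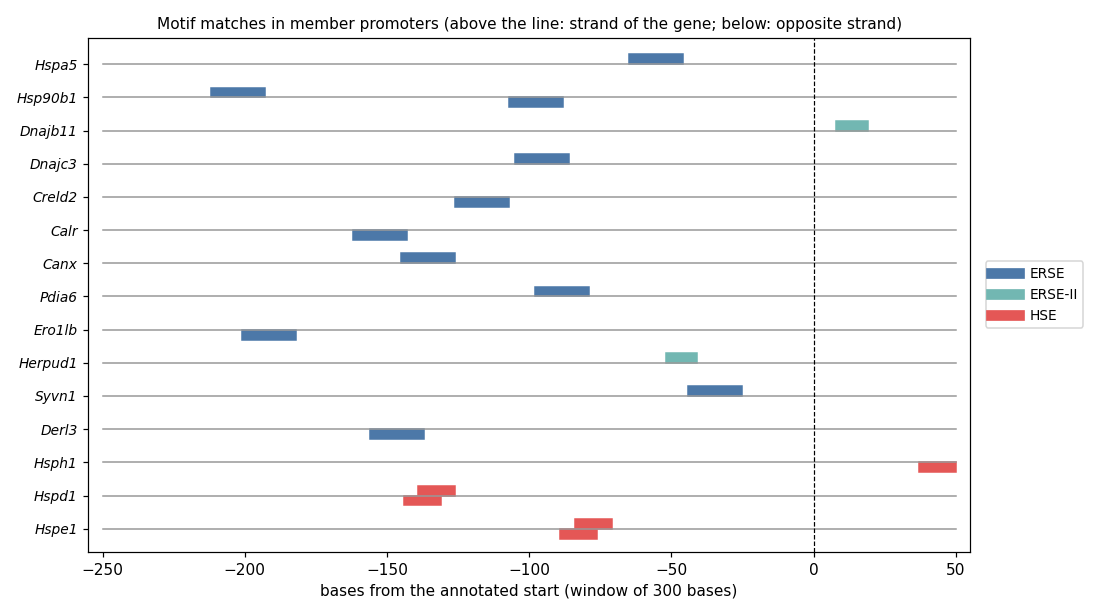
Positions of ERSE, ERSE-II and heat shock element (HSE) matches in the 300-base promoter windows of the members that have one, in bases from the annotated start. Boxes above a line are on the strand of the gene and boxes below it on the opposite strand. ERSE and ERSE-II boxes lie in ER members and HSE boxes in heat shock members, with the overlapping HSE pair of Hspd1 and Hspe1 being the same bases seen from either gene.

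Of the heat shock members, 8 of 13 did not pass with fasting in LWT and 10 of 13 in LKO, as did not 12491 and 12500 of all 21372 genes. Hspa8 (HSC70, probe at chr9:40612755-40613050, mm9, for NM_031165), the constitutive HSP70 of the cytosol, read 15.71, 16.14 and 16.34 in LWT_Fed, 15.87, 15.98 and 16.21 in LWT_Fasted, 15.51, 15.68 and 16.22 in LKO_Fed, and 15.89, 16.14 and 16.37 in LKO_Fasted. The groups overlapped throughout, and the median of LKO_Fed was the lowest of the 4. Its log2 change was -0.03 ± 0.091 (adjusted p = 0.823) in LWT and 0.34 ± 0.10 (adjusted p = 0.00964) in LKO, and the difference of 0.37 ± 0.14 between these did not pass (adjusted p = 0.101). Of its 3 other probes none passed in LKO (0.26 to 0.28), the mean of all 4 gave 0.28 (adjusted p = 0.0590), and without LKO_Fasted replicates 1 and 2, which stood apart (below), its call was lost (0.27, adjusted p = 0.0566). Hsf1, the transcription factor of the heat shock response (probe at chr15:76331176-76331235, mm9, for NM_008296), read 10.03, 10.29 and 10.66 in LWT_Fed, 10.13, 10.44 and 10.56 in LWT_Fasted, 10.17, 10.33 and 10.49 in LKO_Fed, and 10.25, 10.40 and 10.46 in LKO_Fasted. Its changes of 0.17 ± 0.072 (adjusted p = 0.0634) in LWT and 0.06 ± 0.079 (adjusted p = 0.585) in LKO did not pass. The LWT value sat near the threshold and passed when any 1 of 5 arrays was left out, LWT_Fasted replicate 2 or 5 or LWT_Fed replicate 2, 3 or 6 (adjusted p = 0.0210 to 0.0423). It also passed with the authors' matrix, normexp background correction, the processed signal scaled to its 75th percentile and the filter requiring all arrays.

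The strictly inducible genes were variable and did not pass in any comparison. Hspa1b ranged from 9.80 to 11.35 in LWT_Fed, 9.25 to 10.91 in LWT_Fasted, 9.35 to 11.27 in LKO_Fed and 9.92 to 12.34 in LKO_Fasted, and the SD within groups was 0.59 to 0.88. Hspa1a ranged from 6.62 to 9.29 over all arrays, with SDs of 0.52 to 0.93. These 2 HSP70 genes are near-identical copies, so their probes may share transcripts. With 2 SE on either side, the interval of the Hspa1b fasting change ran from -1.16 to 0.26 in LWT and from -0.15 to 1.42 in LKO, so changes of this size cannot be told from none. Dnajb1 (HSP40) and Bag3, a co-chaperone of selective autophagy, did not pass in any comparison either, with log2 changes from -0.43 to 0.31.

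**Figure D4:**
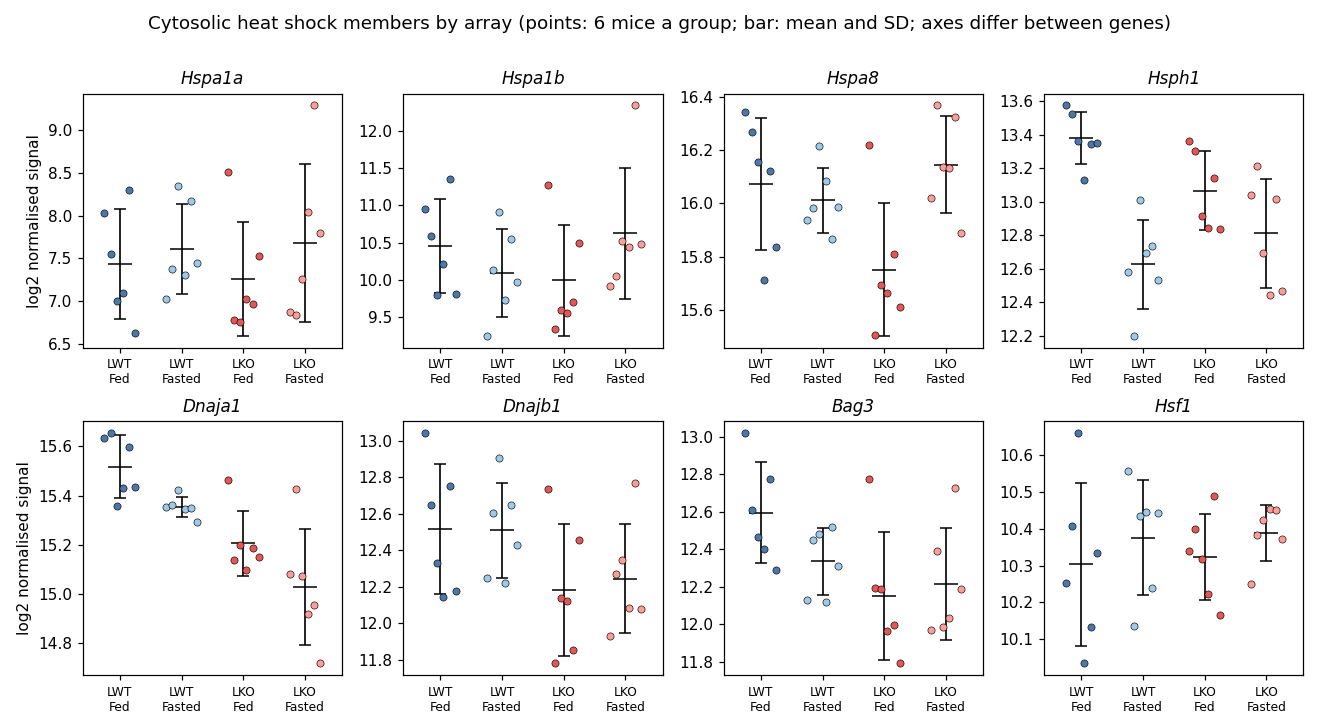
Log2 normalised signal of 8 cytosolic heat shock members on each array, by group, with single mice as points (n = 6 a group) and the mean and SD as bars. The groups overlap for all but Hsph1, whose fed LWT arrays lie above all fasted LWT arrays.

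HSP90 and the large HSP70 co-chaperone Hsph1 (HSP110) fell in LWT mice, as did Dnaja1 at the threshold. Hsp90aa1, the inducible HSP90, read 14.34, 14.48 and 14.69 in LWT_Fed, 13.37, 13.85 and 14.12 in LWT_Fasted, 14.31, 14.57 and 14.78 in LKO_Fed, and 13.79, 14.45 and 14.79 in LKO_Fasted. Hsp90ab1, the constitutive HSP90, read 16.43, 16.58 and 16.65 in LWT_Fed, 15.97, 16.08 and 16.24 in LWT_Fasted, 16.34, 16.48 and 16.66 in LKO_Fed, and 16.17, 16.49 and 16.72 in LKO_Fasted. For both, LWT_Fasted lay below LWT_Fed without overlap, while the LKO groups overlapped. Hsp90aa1 fell by 0.72 ± 0.12 on the log2 scale in LWT (adjusted p = 6.12e-05) against -0.08 ± 0.14 in LKO (adjusted p = 0.685), and Hsp90ab1 fell by 0.46 ± 0.067 (adjusted p = 1.18e-05) against 0.03 ± 0.074 (adjusted p = 0.771). Hsph1 fell by 0.70 ± 0.12 in LWT (adjusted p = 4.78e-05), with -0.26 ± 0.13 in LKO (adjusted p = 0.117) and a difference that did not pass (adjusted p = 0.125). The change of Dnaja1 in LWT (-0.19 ± 0.075, adjusted p = 0.048) lost its call without any 1 of 9 LWT arrays (adjusted p = 0.0559 to 0.169), namely replicates 1, 2, 3 and 6 of LWT_Fasted and 1, 2, 4, 5 and 6 of LWT_Fed. Among 33 other cytosolic chaperones 15 fell and 3 rose in LWT and 10 fell and 6 rose in LKO (11 and 5 without LKO_Fasted replicates 1 and 2), beside 21.7% of all genes falling and 19.9% rising in LWT and 21.9% and 19.7% in LKO, with the HSP90 co-chaperone Fkbp4 changing by -0.88 and -0.77 and Hspb8 by 0.62 and 0.52.

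Few members differed by genotype in fed mice. Of 27 ER members 2 were higher and 1 lower in LKO_Fed than in LWT_Fed, against 8.81% of all genes that were higher and 7.61% that were lower. Of 13 heat shock members 0 were higher and 2 lower. None of these 5 passed a fold of 1.5, which 3.85% of all genes did together with the adjusted p. Hyou1 was higher in LKO_Fed by 0.39 ± 0.11 (log2, adjusted p = 0.0230), though its call was lost without any 1 of 5 arrays, LKO_Fed replicate 1, 2 or 4 or LWT_Fed replicate 4 or 5 (adjusted p = 0.0504 to 0.103), and with the mean of its probes (0.21, adjusted p = 0.275). Dnajc10 was higher by 0.36 ± 0.086 (adjusted p = 0.00668), at 10.14, 10.35 and 10.52 in LWT_Fed against 10.46, 10.68 and 10.96 in LKO_Fed. None of its 3 other probes passed here (0.14, 0.15 and -0.12), and their mean with it gave 0.13 (adjusted p = 0.154). Derl2 was lower by 0.39 ± 0.083 (adjusted p = 0.00275), at 14.78, 14.91 and 14.99 against 13.99, 14.57 and 14.64, and its groups did not overlap. Fed genotypes were without overlap in 1 of 27 ER members, 0 of 13 heat shock members and 8.65% of all genes. Dnaja1, an HSP40 of the cytosol, was lower by 0.32 ± 0.077 (adjusted p = 0.00651), at 15.36, 15.52 and 15.66 against 15.10, 15.17 and 15.46. Neither of its other probes passed (-0.39, adjusted p = 0.0618, and -0.06, adjusted p = 0.694), while the mean of its probes did (-0.26, adjusted p = 0.0277). Hspa8 was lower by 0.28 ± 0.094 (adjusted p = 0.0469), a call lost in 10 of 12 fits with 1 array left out, all but those without LKO_Fed replicate 1 or LWT_Fed replicate 4. Xbp1 (0.26 ± 0.11, adjusted p = 0.136) and Hsf1 (0.08 ± 0.073, adjusted p = 0.484) did not pass, although without LKO_Fed replicate 6 Xbp1 did (adjusted p = 0.0382). In the PERK branch 4 of 10 genes were higher in LKO_Fed, Ddit3 (CHOP) by 1.32 and Trib3 by 0.56.

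In fasted mice the genotypes differed in a few members of each kind. Counting both directions, ER members passed no more often than all genes. The difference did not pass in 22 of 27 ER and 7 of 13 heat shock members, beside 16976 of all 21372 genes. Of 27 ER members 1 was higher and 4 lower in LKO_Fasted, against 9.99% of all genes that were higher and 10.6% that were lower, and of 13 heat shock members 5 were higher and 1 lower. Past a fold of 1.5 were 2 ER and 2 heat shock members, against 4.06% of all genes. The ER members were Herpud1 and Ero1lb, lower in LKO, and the heat shock members Hspb1 and Hsp90aa1, higher in LKO. Before these are given, 2 of the LKO_Fasted arrays need mention. Replicates 1 and 2 scored 35.1 and 31.2 on the second principal component of all tested probes (13.6% of the variance), while the other LKO_Fasted arrays scored 1.4 to 2.9 and the LKO_Fed arrays 19.1 to 29.0. The differences of members that passed in fasted mice are therefore given with and without both. Without them 6 ER members differed by genotype in fasted mice, of which 4 were shared, P4hb being lost and Sel1l and Edem1 gained, and the same 6 heat shock members differed.

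Herpud1 encodes a membrane protein that organises the HRD1 complex of ERAD, and its transcript is known as one of the most responsive to ER stress. It read 14.12, 14.58 and 14.83 in LWT_Fed, 14.46, 14.76 and 15.13 in LWT_Fasted, 14.10, 14.48 and 14.57 in LKO_Fed, and 13.23, 13.75 and 14.19 in LKO_Fasted. Every LKO_Fasted array lay below every LWT_Fasted array. The difference was -1.07 ± 0.17 (log2, adjusted p = 0.000166), a 2.10-fold lower signal. Unlike most ER members, Herpud1 did not fall in LWT (0.18 ± 0.16, adjusted p = 0.387) but fell in LKO by 0.73 ± 0.18 (adjusted p = 0.00197), and the interaction was -0.91 ± 0.24 (adjusted p = 0.0224). The second probe gave an interaction of -1.11 (adjusted p = 0.00813). The call of the interaction was lost without LKO_Fasted replicate 5 or 6 or LWT_Fed replicate 5 (adjusted p = 0.0530 to 0.0601), and it held without LKO_Fasted replicates 1 and 2 together (-1.13, adjusted p = 0.00307), as did the genotype difference in fasted mice (-1.29, adjusted p = 6.57e-05). Its promoter (RefSeq, GRCm38.p6, chr8:94386309-94386428, plus strand, the 120 bases before the start, 5′ to 3′) is shown because it carries the rare ERSE-II, in capitals.
Herpud1 promoter: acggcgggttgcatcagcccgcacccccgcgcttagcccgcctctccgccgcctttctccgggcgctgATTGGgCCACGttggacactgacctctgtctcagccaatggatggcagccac

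Ero1lb, the oxidase that recharges protein disulfide isomerases, read 10.17, 10.43 and 10.62 in LWT_Fed, 10.12, 10.24 and 10.60 in LWT_Fasted, 10.31, 10.51 and 10.77 in LKO_Fed, and 9.39, 9.57 and 9.98 in LKO_Fasted. LKO_Fasted lay below all 3 other groups without overlap. The signal was lower in LKO_Fasted than in LWT_Fasted by 0.62 ± 0.11 on the log2 scale (adjusted p = 0.000526), and the interaction was -0.69 ± 0.16 (adjusted p = 0.00988). A second, dimmer probe (AK004981) did not pass in any comparison (interaction -0.19, adjusted p = 0.597), and the mean of both gave a fasted difference of -0.24 (adjusted p = 0.0390). Without LKO_Fasted replicates 1 and 2 the interaction of Ero1lb was -0.71 (adjusted p = 0.00893). Dnajc10 fell further in LKO than in LWT, at 9.89, 9.94 and 10.37 in LWT_Fasted and 9.70, 9.84 and 10.18 in LKO_Fasted beside the fed values above, with an interaction of -0.44 ± 0.12 (adjusted p = 0.0337). That call was lost without any 1 of 9 arrays (LKO_Fasted 5 and 6, LKO_Fed 1, 2 and 3, LWT_Fasted 3, and LWT_Fed 2, 5 and 6, adjusted p = 0.0516 to 0.0730), and none of its 3 other probes passed. The interaction of Dnajc10 was -0.46 without LKO_Fasted replicates 1 and 2 (adjusted p = 0.0353) and -0.23 with the mean of its probes (adjusted p = 0.128). Derl2 (-0.26 ± 0.089, adjusted p = 0.0406) and P4hb (-0.23 ± 0.076, adjusted p = 0.0375) were lower in LKO_Fasted near the threshold. The call of Derl2 was lost without LKO_Fasted 1, 3, 5 or 6 or LWT_Fasted 1, 4 or 5 (adjusted p = 0.0502 to 0.120), and that of P4hb without LKO_Fasted 1, 2 or 6 or LWT_Fasted 1, 5 or 6 (adjusted p = 0.0693 to 0.0980). Xbp1 was the 1 ER member higher in LKO_Fasted, by 0.51 ± 0.12 (adjusted p = 0.00451), with 0.45 and 0.41 at its other probes (adjusted p = 0.0245 and 0.0731). Its interaction did not pass (0.26 ± 0.17, adjusted p = 0.381). Without LKO_Fasted replicates 1 and 2, the fasted genotype difference was -0.64 for Ero1lb (adjusted p = 0.00172), 0.45 for Xbp1 (adjusted p = 0.0324), -0.33 for Derl2 (adjusted p = 0.0235) and -0.21 for P4hb (adjusted p = 0.123).

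**Figure D5:**
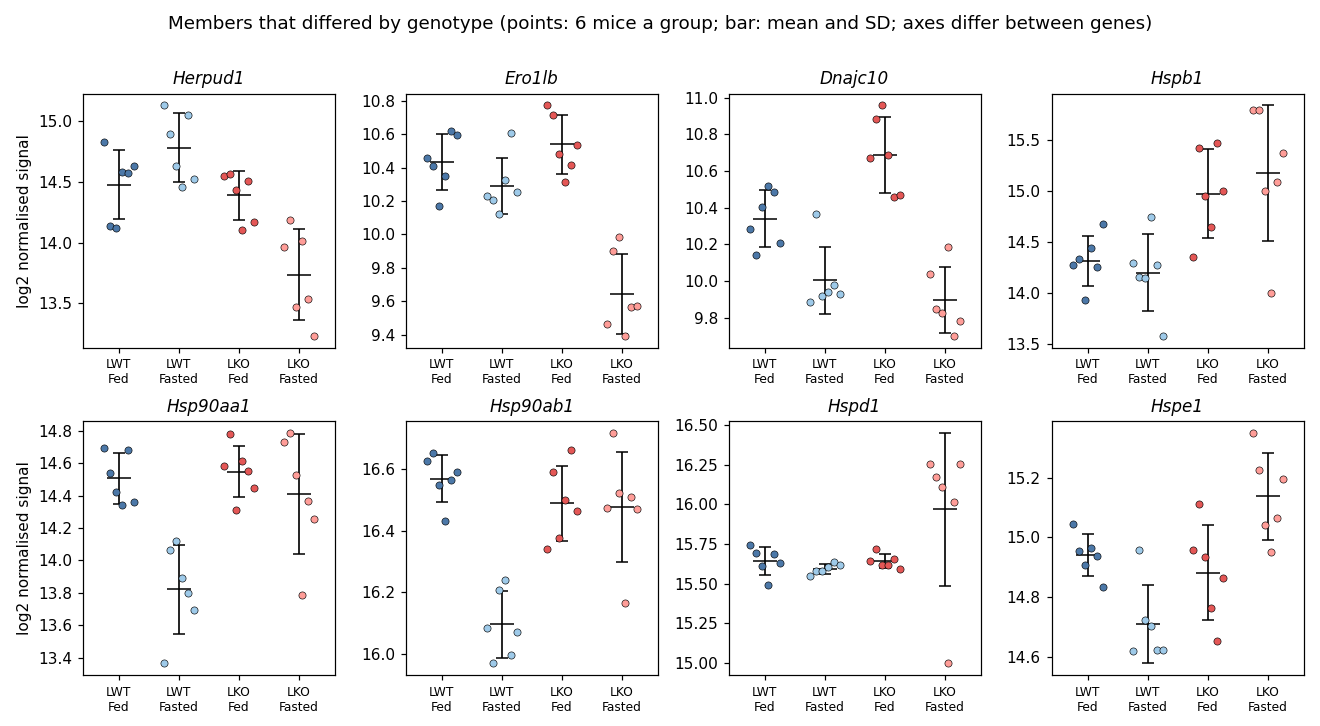
Log2 normalised signal on each array of 8 members that differed by genotype, with single mice as points (n = 6 a group) and the mean and SD as bars. In LKO_Fasted, Herpud1 and Ero1lb lie below the LWT_Fasted arrays, the HSP90 genes spread around the fed level, and 5 of 6 arrays of Hspd1 stand above all other groups while replicate 4 lies lowest.

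The heat shock members higher in fasted LKO mice were both HSP90 genes, HSP60, HSP10 and HSP27, and the lower one was the HSP40 gene Dnaja1. Hsp90aa1 was higher in LKO_Fasted by 0.65 ± 0.13 on the log2 scale (adjusted p = 0.00139) and Hsp90ab1 by 0.39 ± 0.073 (adjusted p = 0.000673), with interactions of 0.64 ± 0.18 (adjusted p = 0.0352) and 0.49 ± 0.10 (adjusted p = 0.00502). Without LKO_Fasted replicates 1 and 2 the interaction of Hsp90aa1 was 0.48 (adjusted p = 0.0955) and that of Hsp90ab1 was 0.44 (adjusted p = 0.0102), while their fasted differences were 0.49 (adjusted p = 0.0176) and 0.34 (adjusted p = 0.00626). The former was also lost without any 1 of 9 arrays (LKO_Fasted 1, 2 and 3, LKO_Fed 3, 5 and 6, LWT_Fasted 6, and LWT_Fed 1 and 5, adjusted p = 0.0546 to 0.102), and the latter in none of the 24 fits with 1 array left out. Hspb1 (HSP27), a small heat shock protein that holds unfolded clients, read 13.94, 14.31 and 14.68 in LWT_Fed, 13.58, 14.22 and 14.75 in LWT_Fasted, 14.36, 14.98 and 15.48 in LKO_Fed, and 14.01, 15.23 and 15.80 in LKO_Fasted. It was higher in LKO_Fasted by 1.09 ± 0.22 (adjusted p = 0.00143), a 2.14-fold difference with overlap between the groups, and by 0.86 without replicates 1 and 2 (adjusted p = 0.0148). The fed difference was 0.53 ± 0.21 (adjusted p = 0.0909), and fasting did not move it past the threshold in either genotype. Dnaja1 was lower in LKO_Fasted, by 0.34 ± 0.082 (adjusted p = 0.00545), and by 0.48 without replicates 1 and 2 (adjusted p = 9.17e-05). Neither other Dnaja1 probe passed (-0.20 and -0.11), and the call was lost with the mean of its probes (-0.22, adjusted p = 0.0769) and in a fit of the compared groups only. Hspa5 (0.22), Hspa8 (0.09) and Hsf1 (-0.03) did not differ past the threshold in fasted mice (adjusted p = 0.44, 0.566 and 0.859), nor did their interactions (adjusted p = 0.847, 0.101 and 0.585).

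Hspd1 (HSP60) and Hspe1 (HSP10), which form the folding chamber of mitochondria, were both higher in fasted LKO mice. Hspd1 read 15.49, 15.66 and 15.74 in LWT_Fed, 15.55, 15.59 and 15.64 in LWT_Fasted, 15.59, 15.63 and 15.72 in LKO_Fed, and 15.00, 16.14 and 16.26 in LKO_Fasted. Hspe1 read 14.83, 14.95 and 15.05 in LWT_Fed, 14.62, 14.66 and 14.96 in LWT_Fasted, 14.65, 14.90 and 15.11 in LKO_Fed, and 14.95, 15.13 and 15.35 in LKO_Fasted. For Hspd1, LKO_Fasted replicate 4 was the lowest of all arrays and the next one of its group stood at 16.02, so that the other 5 lay above every array of the other groups. With fasting, Hspd1 changed by -0.05 ± 0.095 in LWT (adjusted p = 0.729) and rose by 0.43 ± 0.11 in LKO (adjusted p = 0.00218), while Hspe1 fell by 0.28 ± 0.070 in LWT (adjusted p = 0.00301) and rose by 0.26 ± 0.077 in LKO (adjusted p = 0.0110). The interactions were 0.48 ± 0.14 for Hspd1 (adjusted p = 0.0425) and 0.53 ± 0.10 for Hspe1 (adjusted p = 0.00368). In fasted mice both were higher in LKO by 0.47 (adjusted p = 0.00268 and 0.000178), and by 0.39 and 0.41 without LKO_Fasted replicates 1 and 2 (adjusted p = 0.0254 and 0.0020). The second Hspd1 probe gave an interaction of 0.50 (adjusted p = 0.00157), and both other Hspe1 probes gave 0.45 and 0.44 (adjusted p = 0.0134 and 0.00957). The rise of Hspe1 in LKO was smaller at those, 0.16 (adjusted p = 0.127) and 0.20 (adjusted p = 0.0360). For the main Hspd1 probe the interaction was 0.57 without LKO_Fasted replicate 4 (adjusted p = 0.000154), 0.40 without replicates 1 and 2 (adjusted p = 0.10), and was lost in 18 of 24 fits with 1 array left out (adjusted p = 0.0526 to 0.113), all but those without LKO_Fasted 4 or 5, LKO_Fed 2, LWT_Fasted 2 or LWT_Fed 3 or 4. That of Hspe1 held in all 24 and without replicates 1 and 2 (0.47, adjusted p = 0.00766), although its rise in LKO was then 0.20 (adjusted p = 0.0711). The rise of Hspd1 in LKO was 0.36 without them (adjusted p = 0.0208). Without array weights Hspd1 passed neither for its rise in LKO (0.33, adjusted p = 0.0571) nor for the fasted difference (0.38, adjusted p = 0.0581) or the interaction (0.38, adjusted p = 0.272). By slide its rise in LKO was -0.07, 0.41 and 0.64, its fasted difference -0.01, 0.50 and 0.64, and its interaction -0.02, 0.57 and 0.58, with replicate 4 on the first slide.

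Both genes are read in opposite directions from 1 shared promoter, shown because it holds the heat shock element, GAANNTTCNNGAA, to which HSF1 is known to bind. The 60 bases from chr1:55088038-55088097 (RefSeq, GRCm38.p6, plus strand, 5′ to 3′), read towards Hspe1, carry 2 overlapping matches, 1 on each strand, with the fixed letters of either in capitals.
Hspe1 and Hspd1 promoter: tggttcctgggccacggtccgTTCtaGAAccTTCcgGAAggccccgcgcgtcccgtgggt
Of the cytosolic members, Hsph1 held the element at chr5:149636288-149636300 on the plus strand (GAActTTCcaGAA). Matches were thus found in 3 of 9 heat shock members with a promoter (33.3%), the shared bases counting for both Hspd1 and Hspe1. They were found in 0 of 23 ER members and in 0.662% of all promoters. Only exact matches to the fixed letters within the promoter windows were counted. Other forms of the element, and sites outside the windows, were not searched for. The lack of a match in Hspa1a, Hspa1b, Hspb1, Dnaja1, Dnajb1 and Bag3 therefore does not show that they lack the element.

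The chaperones beside them on the lists gave smaller differences. Among 33 other cytosolic chaperones 10 were higher and 1 lower in LKO_Fasted than in LWT_Fasted, and 5 and 0 without LKO_Fasted replicates 1 and 2, beside 9.99% and 10.6% of all genes, with subunits of the cytosolic chaperonin, Cct3 (0.39) and Cct7 (0.34), furthest. Of 8 other mitochondrial chaperones and proteases 1 was higher, Hspa9 (mortalin) by 0.25. In the PERK branch, Atf5, a factor known for the mitochondrial stress response, was higher in LKO_Fasted by 0.65 (adjusted p = 0.000322) and had an interaction of 0.85 (adjusted p = 0.00187), and both held without those replicates (0.72, adjusted p = 0.000740, and 0.92, adjusted p = 0.00108). Over all genes tested, 4.13% had a higher and 3.87% a lower interaction, beside 0 and 3 of 27 ER members and 4 and 0 of 13 heat shock members. Past a fold of 1.5 as well were 2 ER members, Herpud1 and Ero1lb, and 1 heat shock member, Hsp90aa1, against 3.10% of all genes.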

How the data were processed

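Cy3-labelled liver RNA of each mouse was put on its own 1-colour Agilent array of mouse probes by the authors, with Feature Extraction 10.10.1.1 turning each scan into spot values (submitters' notes). Per the file headers, the deposited files give intensities of every spot, namely a median and a mean without background subtraction, the background around it, and a signal processed by that software. The deposited series matrix holds log2 values that the authors normalized between arrays, per their methods after a filter and a batch correction, and was used as an alternative. Probe positions are those of the deposited files, in mm9. Spots marked as uneven or outlying by the software were dropped, none reached saturation, and spots of 1 probe were averaged. A probe was kept (32197 of 56605) where any group had it well above background in 5 or more of its 6 mice. The share of spots above background ran from 54.7% to 63.0% between arrays, and precision is limited by how many arrays there are. Log2 median signals were quantile normalized, and group means, slide (3 slides of 8 arrays) and array weights were fitted to all 24 arrays with limma 3.58.1 in R 4.3.3. P-values are two-sided and were adjusted by Benjamini-Hochberg over all kept probes. The slide stands in for the washing bath, which the labels do not name. SE is that of the fit. Means, SDs and ranges are of normalized arrays without the slide term or weights, so a fitted change can depart from their difference. The fit was tested on simulated data. Signals of different probes are not compared with each other, except to choose the probe of a gene and to call its other probes dimmer or brighter.

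The members and lists were chosen with earlier results of these data known. Named genes are Hspa5, Xbp1, Hspa8 and Hsf1, and in each contrast up to 8 members with the largest changes among those with an adjusted p of at most 0.05; other members and list genes are given as examples, the latter as the largest changes that pass. Of the 40 members, 24 have more than 1 probe. Promoters are RefSeq's for GRCm38.p6, searched on both strands, and were not at hand for Atf6, Derl1, Hsf1, Hsp90aa1, Hsp90ab1, Hspa8, Hyou1 and Manf. The alternatives tried were other backgrounds, scalings, filters, weights and blocks, the mean of a gene's probes, a fold of over 1.5, and leaving out arrays.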

Additional observations from a re-analysis of the deposited data

Results flagged for a closer look

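Of 160 tests for a single array far from the other 5 of its group, 1 for each of the 40 members in each group, 17 passed Dixon's criterion, where chance alone flags about 1 in 20. In 6 of the 17, LKO_Fasted replicate 4 was the low array: Hyou1 at 6.93 (log2 signal, nearest array 7.27), Creld2 at 12.76 (13.64), Calr at 12.89 (13.33), Pdia3 at 12.36 (12.80), Pdia4 at 10.56 (10.94) and Hspd1 at 15.00 (16.02). This array was the lowest of its group for 14 of 27 ER and 6 of 13 heat shock members. Other groups also had an array that was lowest for many ER members, LWT_Fed replicate 3 for 17, LKO_Fed replicate 5 for 15 and LWT_Fasted replicate 2 for 14. In LKO_Fasted, Hspa1b was also high in replicate 5, at 12.34 (10.53).

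In LWT_Fasted, replicate 2 was high for Dnajc10 at 10.37 (nearest array 9.98) and Hspe1 at 14.96 (14.72) and low for Pdia4 at 9.98 (10.86) and Syvn1 at 13.56 (13.83), while replicate 5 was high for Canx at 14.42 (14.11) and Pdia6 at 14.71 (14.40). In LKO_Fed, replicate 6 was low for Derl1 at 12.24 (12.43) and Derl2 at 13.99 (14.54), and replicate 1 was high for Dnaja1 at 15.46 (15.20). In LWT_Fed, replicate 3 was high for Hyou1 at 9.10 (8.65).

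The fasting change differed between genotypes in 7 members (LKO minus LWT, limma interaction, adjusted p of at most 0.05). It was more negative in LKO for Herpud1 (-0.91), Ero1lb (-0.69) and Dnajc10 (-0.44), and more positive in LKO for Hsp90aa1 (0.64), Hspe1 (0.53), Hsp90ab1 (0.49) and Hspd1 (0.48).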

How the results depend on the processing

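The counts of passing ER members with fasting kept within 1.5 times of the reported 25 in LWT and 26 in LKO under every alternative, and the smaller counts moved. Requiring a fold of over 1.5 left 2 heat shock members for fasting in LWT and 0 in LKO, 0 ER and 0 heat shock members for genotype in fed mice, 2 and 2 in fasted mice, and 1 heat shock interaction. For genotype in fed mice, the count of ER members (3) was 6 with the authors' matrix, with normexp background correction and with the filter requiring all arrays, 5 with no slide term and with slide as a random block, and 1 with the mean of a gene's probes. The heat shock count there (2) was 4 with common-median scaling, normexp and the all-array filter, and 1 with no filter. For genotype in fasted mice, the ER count (5) was 3 with no filter and 3 with a fit of the compared groups only. Heat shock interactions (4) were 2 with no filter and 2 without LKO_Fasted replicates 1 and 2 together. The cause of these shifts was not tested. The mean of probes turned the fall of Derl1 in LKO to 0.15 (adjusted p = 0.0765), since its second probe rose.

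With 1 array left out, the ER counts ran from 24 to 26 for fasting in LWT, 26 to 26 in LKO, 2 to 7 for genotype in fed and 3 to 5 in fasted mice, and 1 to 3 for the interaction, and the heat shock counts from 4 to 7, 3 to 5, 1 to 4, 6 to 6 and 2 to 4. Heat shock members passing in LKO were 5 without LKO_Fasted replicate 1 or 2. ER members passing for genotype in fed mice were 7 without LKO_Fed replicate 6 and 5 without LKO_Fed 3 or LWT_Fed 6, and heat shock members were 4 without LKO_Fed 1 and 1 without LKO_Fed 3, 4, 5 or 6 or LWT_Fed 1 or 5. ER members differing in fasted mice were 3 without LKO_Fasted 1 or 6 or LWT_Fasted 1 or 5. ER interactions were 1 without LKO_Fasted 5 or 6 or LWT_Fed 5, and heat shock interactions 2 without LKO_Fasted 1, 2 or 3, LKO_Fed 3, 5 or 6, LWT_Fasted 6 or LWT_Fed 1 or 5. Of the values for named members, 1183 of those with 1 array left out kept their direction and side of the threshold, 82 lost the call and 7 gained it, and under the other alternatives 1130 kept it, 48 lost it, 5 gained it and 1 turned. The calls lost with no filter were Dnajb9 and Dnaja1 for fasting in LWT, Hyou1 and Hspa8 in fed mice, P4hb and Derl2 in fasted mice, and the interactions of Dnajc10, Hsp90aa1 and Hspd1. Without array weights Dnajb9, Dnaja1, Hyou1, P4hb and the interaction of Hsp90aa1 were lost in the same comparisons. Hspd1 rested on the array weights, which count LKO_Fasted replicate 4 for less, and all 3 of its calls were lost without weights.

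The replicate numbers are shared by the groups but do not pair the mice. Deviations of same-numbered arrays correlated at -0.282 to 0.213 (median -0.0154 over 36 pairs), and 0 of 24 arrays correlated best with its own number. With the replicate number as a block the heat shock count for genotype in fed mice was 1, and no other count moved by over 1.5 times. The mice are separate, so p-values measure the spread between mice of 1 experiment. All 40 members were well above background on all 24 arrays. The median signals fitted still contain background, which was not subtracted, so folds of dim probes may be understated.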
